A study of Homo sapiens with 36 samples.

Results

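The genes described here are 9 members of the transforming growth factor beta (TGF-beta) pathway, followed in 2 human cell lines exposed to a water extract of Aconitum carmichaeli Debeaux (ACD) or to wortmannin. They were taken by their symbols, each of which matched 1 Ensembl gene, so that the 9 genes are 9 of the 60675 genes in the table: the ligands TGFB1, TGFB2 and TGFB3, the receptors TGFBR1 and TGFBR2, the signal carrier SMAD3, the inhibitors SMAD7 and SKIL, and the matrix gene TGFBI. RNA sequencing covered 36 libraries in 12 groups of 3. SW1783, an astrocytoma line, and HT29, a colorectal adenocarcinoma line, each had a batch B with vehicle (0.1% DMSO) and ACD at 20 µg/mL (low), 100 µg/mL (medium) and 500 µg/mL (high), and a batch A with its own vehicle and wortmannin at 10 µM, an inhibitor of phosphoinositide 3-kinases that served as the positive control. RNA was taken after 24 h. Per the study's methods the lines were grown in different media, HT29 with added carbon dioxide and SW1783 without, and plated at different cell numbers. In comparisons between the lines, cell line and culture conditions cannot be told apart. Each line is a single established culture, and nothing in the labels says whether the 3 libraries of a group came from separate cultures, so that p-values measure the spread between these libraries, which may be technical. The study asked in which of both lines the extract acted more strongly, and the comparisons below put that question to the TGF-beta genes.

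TGF-beta ligands are secreted in a latent form that has to be released outside the cell. The active dimer binds the type II receptor TGFBR2, which recruits and phosphorylates the type I receptor TGFBR1, and this kinase in turn phosphorylates SMAD2 and SMAD3, which enter the nucleus with SMAD4 and regulate target genes. SMAD7 blocks the type I receptor and SKIL (SnoN) represses Smad complexes on DNA, and both are themselves induced by the pathway, as is TGFBI, which encodes an extracellular matrix protein. Astrocytic tumours commonly make TGF-beta, while intestinal epithelium responds to it with growth arrest and colorectal tumours often carry altered receptors.

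Total counts ranged from 15941250 to 33866636 per library. The check of the lines against cell type markers was mixed. HT29 expressed EPCAM at 452 to 585 CPM (counts scaled to a fixed library total), and in SW1783 the summed CPM of the 5 epithelial markers did not pass 0.405 in any library. In SW1783 the astrocyte markers GFAP, S100B, AQP4 and ALDH1L1 did not pass 0.261 CPM in any of the 18 libraries. The astrocyte marker SLC1A3 lay between 5.58 and 50.1 CPM there and the mesenchymal marker VIM between 4080 and 4970 CPM. HT29 held SLC1A3 at up to 0.0419 CPM and ALDH1L1 at 5.73 to 10.8 CPM. As the astrocyte markers were split, SW1783 is called here by its name only. HT29 high ACD replicate 2, the shallowest library, stood apart. Chi-square per degree of freedom between libraries of that group ran from 9.33 to 65.1. It ran from 2.33 to 20 within the other HT29 groups and from 1.65 to 3.55 within those of SW1783. Some member changes and line differences are also given without this library. All other values that use the group or its fit include it. Vehicle libraries of batches A and B with the same replicate number differed less (1.44 to 1.61) than vehicles with other numbers (1.96 to 16.1), so that the controls of the ACD and wortmannin comparisons may not be independent. All ACD doses of a line were compared with the same 3 vehicle libraries.

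The promoters of 4 members are shown. TGFB3, TGFB2 and SMAD3 were the members called lower in SW1783 at the high dose. SKIL was higher there, by under 1.5-fold, and was picked after the search because it holds a longer motif. TGFBR1, also higher by under 1.5-fold, is not shown. Each sequence is the 250 bases before a transcription start in RefSeq (GRCh38.p14), 5′ to 3′ on the strand of the gene, and capitals mark matches on either strand to the letters GTCTG (a short SMAD-binding motif, CAGAC on the other strand) or TGACGTCA (the cAMP response element, CRE).
TGFB3, chr14:75983012-75983261, minus strand: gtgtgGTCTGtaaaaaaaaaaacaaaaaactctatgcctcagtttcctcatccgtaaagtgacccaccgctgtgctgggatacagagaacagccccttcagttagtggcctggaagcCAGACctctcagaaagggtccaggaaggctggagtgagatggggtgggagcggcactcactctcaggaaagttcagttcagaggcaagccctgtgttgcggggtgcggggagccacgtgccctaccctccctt
TGFB2, chr1:218345086-218345335, plus strand: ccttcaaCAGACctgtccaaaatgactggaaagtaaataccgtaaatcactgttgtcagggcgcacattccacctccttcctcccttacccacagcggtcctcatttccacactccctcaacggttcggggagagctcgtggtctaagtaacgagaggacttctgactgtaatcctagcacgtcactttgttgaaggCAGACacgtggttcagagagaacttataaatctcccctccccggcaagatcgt
SMAD3, chr15:67065352-67065601, plus strand: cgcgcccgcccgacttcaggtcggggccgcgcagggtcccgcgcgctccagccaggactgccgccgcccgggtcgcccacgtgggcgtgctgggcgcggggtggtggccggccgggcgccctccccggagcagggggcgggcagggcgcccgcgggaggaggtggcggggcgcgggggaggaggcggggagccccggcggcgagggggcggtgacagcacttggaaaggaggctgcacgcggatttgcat
SKIL, chr3:170357465-170357714, plus strand: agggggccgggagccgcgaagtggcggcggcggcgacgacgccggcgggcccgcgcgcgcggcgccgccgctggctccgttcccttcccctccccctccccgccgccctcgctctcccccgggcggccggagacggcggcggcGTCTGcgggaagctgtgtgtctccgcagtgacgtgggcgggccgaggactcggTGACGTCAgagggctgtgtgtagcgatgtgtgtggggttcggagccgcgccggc

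GTCTG matches began 245 and 133 bases before the TGFB3 start and 243 and 53 bases before the TGFB2 start. The SKIL window held GTCTG at 107 bases and a CRE at 54 bases before the start, and the SMAD3 window held no match. The SMAD palindrome GTCTAGAC and the AP-1 site TGANTCA were also searched, on both strands, and neither was found in these 4 windows. Over 35116 windows of the same length, 38.0% held GTCTG, 1.65% the CRE, 6.57% the AP-1 site and 0.182% the palindrome. The letters GTCTG are therefore common, and their presence is a description of the sequence only. RefSeq lists 2 starts for TGFB3 and 5 for SMAD3, and the windows shown are those nearest to the gene's start in GENCODE. The other TGFB3 window, chr14:75981996-75982245, held none of the 4 motifs. The other SMAD3 windows, numbered by distance from that start, were not alike. Window 2 held none of the 4 motifs, and window 3 held an AP-1 site 56 bases before its start. Window 4 held GTCTG at 133 bases, and window 5 held it at 172, 135 and 85 bases.

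In vehicle, most members were higher in SW1783 than in HT29. Of the 9 members, 7 were called between SW1783 and HT29 in batch B vehicle (adjusted p under 0.05 and a change over 1.5-fold in DESeq2), 6 higher in SW1783 and 1 lower. Over all 23948 genes tested, 50.7% were called, 27.5% higher and 23.2% lower, and in a fit with a low-count filter 65.1% were called. On the scale of CPM per kb of exon, which allows genes to be compared, TGFBI was the most abundant member in SW1783 at 570 ± 8.11 (SD, n = 3), followed by TGFB1 at 128 ± 11.8. SMAD3 followed at 14.1 ± 0.206, TGFBR1 at 13.4 ± 0.41, SKIL at 12.6 ± 0.169 and TGFBR2 at 11.7 ± 0.382, which lay close together, and SMAD7 at 5.81 ± 0.552, TGFB2 at 4.42 ± 0.141 and TGFB3 at 3.95 ± 0.257 closed the order. HT29 showed another order, headed by TGFBR2 at 18.7 ± 1.67, SKIL at 16.4 ± 1.89 and SMAD3 at 15.1 ± 1.0 CPM per kb, whose spreads overlapped from neighbour to neighbour. TGFBI at 6.45 ± 0.333, TGFB1 at 5.54 ± 0.398, SMAD7 at 3.65 ± 0.0866, TGFBR1 at 2.91 ± 0.489 and TGFB2 at 1.96 ± 0.313 came next, and TGFB3 was lowest at 0.219 ± 0.0734.

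The largest differences between the lines were in TGFBI, TGFB1 and TGFB3. TGFBI had 95905, 97739 and 96766 normalized counts in SW1783 and 1041, 1082 and 1121 in HT29 (log2 difference 6.48 ± 0.05 SE, 89.4-fold). TGFB1 was 23.4-fold higher in SW1783 (log2 difference 4.55 ± 0.09). TGFB3 had 486.4, 423.9 and 453.2 normalized counts in SW1783 and 35.3, 20.1 and 19.6 in HT29 (log2 difference 4.24 ± 0.21, adjusted p = 1.2e-86). For each of these genes the libraries of both lines were far apart, and HT29 TGFB3 rested on 20 to 30 reads per library. TGFBR1 was 4.66-fold, TGFB2 2.27-fold and SMAD7 1.62-fold higher in SW1783. TGFBR2 was the called member that was lower there, with 1703, 1756 and 1821 normalized counts against 2568, 2809 and 2981 (log2 difference -0.66 ± 0.07, adjusted p = 4.93e-19). SKIL was lower in SW1783 by under 1.5-fold (log2 difference -0.36 ± 0.08). SMAD3 did not differ beyond the threshold (log2 difference -0.08 ± 0.06, adjusted p = 0.199), and its libraries overlapped.

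**Figure D1:**
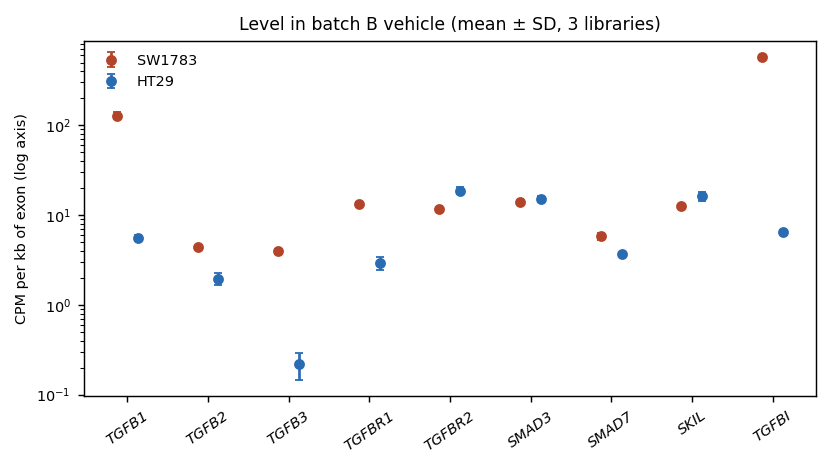
Level of each member in batch B vehicle, in CPM per kb of exon on a log axis, as mean ± SD of 3 libraries for SW1783 (red) and HT29 (blue). TGFBI (570 against 6.45) and TGFB1 (128 against 5.54) show the widest gaps, SMAD3 the narrowest, and TGFBR2 and SKIL are lower in SW1783.

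The lines also differed in the make-up of ligands and receptors. Of the summed ligand counts per kb, TGFB1 made up 93.8 ± 0.632% in SW1783 vehicle and 71.8 ± 0.827% in HT29 vehicle, and TGFB2 made up 3.25 ± 0.199% and 25.3 ± 2.08%. TGFB3 held a like share in both, 2.92 ± 0.434% and 2.91 ± 1.25%. Of the receptor counts per kb, TGFBR1 made up 53.5 ± 1.57% in SW1783 and 13.4 ± 1.01% in HT29. Messenger RNA ratios of this kind say nothing of protein at the cell surface.

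At the high dose of ACD in SW1783, TGFB3 fell to 0.128 of its vehicle level, and TGFB2 and SMAD3 fell to 0.627 and 0.619 of theirs. Of the 9 members, 3 were called and all 3 were lower, where 17.7% of the 20033 genes tested were called, 9.28% lower and 8.42% higher. The median log2 change of the members was -0.34, against -0.01 over all genes tested. By adjusted p alone all 9 members passed, as did 45% of the genes tested, and for all 9 the libraries of both groups did not overlap, as for 59.2% of genes.

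TGFB3, a ligand known from palate development, had 446.8, 390.7 and 416.3 normalized counts in vehicle and 60.2, 47.7 and 53.3 at the high dose. Every treated library lay far below every vehicle library (log2 fold change -2.97 ± 0.15 SE, adjusted p = 7.85e-88). The medium dose gave 228.3, 221.8 and 224.3, between both groups and clear of each (log2 fold change against vehicle -0.89 ± 0.11, adjusted p = 1.72e-14), and the low dose gave 365.5, 402.9 and 367.3, which overlapped with vehicle (-0.14 ± 0.10, adjusted p = 0.593). From the medium to the high dose TGFB3 fell by a further 2.07 ± 0.15 on the log2 scale (adjusted p = 2.66e-40). Its level in SW1783 at the high dose, 0.47 ± 0.0531 CPM per kb, was still above that of HT29 vehicle.

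TGFB2, a ligand that needs the co-receptor betaglycan for strong receptor binding, fell at the high dose. It had 526.7, 536.2 and 562.0 normalized counts in vehicle, 542.5, 533.1 and 548.4 at the medium dose and 347.3, 324.3 and 347.9 at the high dose. The high-dose libraries lay below all others, whereas medium and vehicle overlapped (log2 fold change -0.67 ± 0.08, adjusted p = 3.98e-15 at the high dose; 0.00 ± 0.08, adjusted p = 0.997 at the medium dose). Between the medium and high doses 2 of 9 members were called, both lower, TGFB3 and TGFB2 (-0.67 ± 0.08, adjusted p = 8.28e-15), where 9.79% of 17199 genes were called, 5.38% lower, and 39% passed by adjusted p alone. TGFB1, the main ligand, had 7593, 8648 and 9125 in vehicle and 6432, 6225 and 7078 at the high dose. It was lower without overlap, but by under 1.5-fold (log2 fold change -0.36 ± 0.07, adjusted p = 1.62e-06). The TGFB3 share of the ligand counts per kb went from 2.92 ± 0.434% in vehicle through 2.54 ± 0.208% and 1.66 ± 0.0615% to 0.495 ± 0.0607% at the high dose, and the TGFB1 share was 96.8 ± 0.176% there.

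The receptors differed little from vehicle in SW1783, TGFBR2 lower and TGFBR1 higher. TGFBR2 had 1564, 1619 and 1672 normalized counts in vehicle and 1271, 1345 and 1283 at the high dose, below vehicle without overlap (log2 fold change -0.32 ± 0.06, adjusted p = 5.36e-08). TGFBR1 had 2237, 2162 and 2109 in vehicle and 2370, 2455 and 2281 at the high dose, above it (0.13 ± 0.05, adjusted p = 0.0127). Scaling by total counts, which moved the median of all genes in this comparison by -0.11, left TGFBR1 at 0.01 (adjusted p = 0.849), and leaving out 1 library took its adjusted p to as much as 0.113. The TGFBR1 share of the receptor counts per kb was 53.5 ± 1.57% in vehicle and 52.9 ± 0.813%, 56.8 ± 0.363% and 61.0 ± 0.567% with rising dose, a ratio that does not depend on the scaling.

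**Figure D2:**
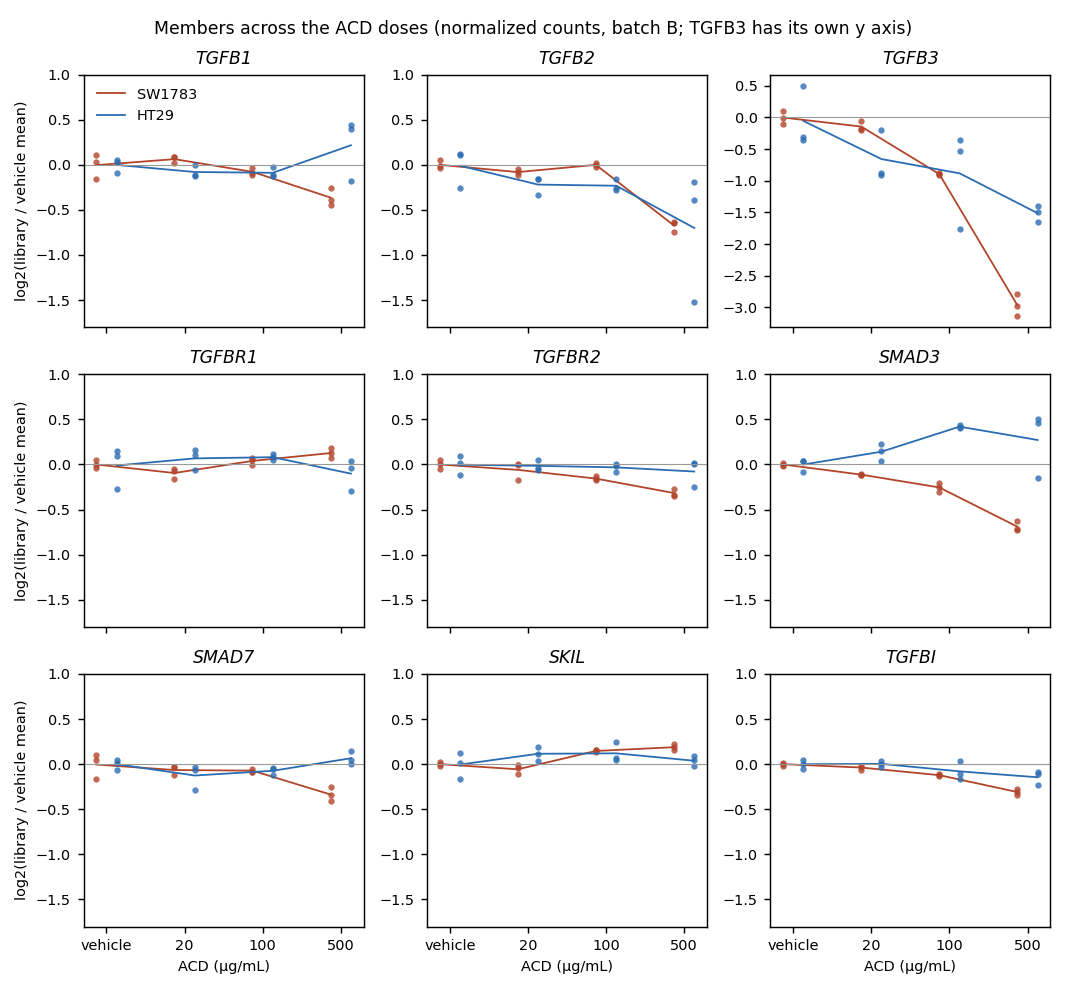
Normalized count of each member in each batch B library, as log2 of its ratio to the vehicle mean of the same line (y axis), over vehicle and 20, 100 and 500 µg/mL ACD (x axis), for SW1783 (red) and HT29 (blue); points are libraries, lines join the group means and TGFB3 has its own y axis. TGFB3 steps down with dose in SW1783, SMAD3 runs down in SW1783 and lies above vehicle in most treated HT29 libraries, and a single HT29 high-dose library lies apart in TGFB1, TGFB2 and SMAD3.

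SMAD3, which carries the receptor signal to DNA, had 2849, 2892 and 2830 normalized counts in SW1783 vehicle and 1844, 1728 and 1744 at the high dose. The groups were well apart (log2 fold change -0.69 ± 0.04, adjusted p = 1.24e-60). The medium dose, with 2486, 2394 and 2307, was below vehicle by under 1.5-fold (-0.26 ± 0.04, adjusted p = 4.61e-09), and the low dose, with 2657, 2644 and 2625, was below vehicle without overlap but did not pass the test in DESeq2 (-0.11 ± 0.04, adjusted p = 0.0983), though it did in edgeR (adjusted p = 0.0467). The order of the doses was thus the same as for TGFB3, with smaller steps.

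The inhibitors parted. SMAD7 was lower at the high dose, with 367.0, 348.7 and 389.1 normalized counts against 415.0, 479.2 and 499.6 in vehicle (log2 fold change -0.34 ± 0.09, adjusted p = 0.000855). SKIL was higher, with 2360, 2314 and 2419 against 2106, 2040 and 2080 (0.19 ± 0.04, adjusted p = 2.19e-05), and also at the medium dose (0.15 ± 0.04, adjusted p = 0.0026). Both changes were under 1.5-fold, without overlap between the groups, and total-count scaling left SKIL at 0.08 (adjusted p = 0.13) at the high dose and at 0.04 (adjusted p = 0.548) at the medium dose. TGFBI had 88083, 90097 and 88886 in vehicle and 70304, 71877 and 73359 at the high dose, a small but tight difference (-0.31 ± 0.02, adjusted p = 8.59e-55).

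At the medium dose 1 of 9 members was called in SW1783, TGFB3, where 3.78% of 13802 genes were called, 2.33% higher and 1.46% lower, and at the low dose 0 of 9, where 0.119% of 9268 genes were called. By DESeq2's adjusted p alone 5 members passed at the medium dose, as did 30.1% of genes, and 0 at the low dose, as did 3.3%. At the low dose 2 members, SMAD3 and TGFBR1, had an unadjusted p under 0.05, and edgeR called 0 members past 1.5-fold. SMAD3 passed by adjusted p alone in edgeR (0.0467), and with total-count scaling SMAD3 (0.00602) and TGFBI (0.00689) did. Libraries did not overlap with vehicle for 5 members at the medium dose, beside 50.8% of all genes tested, and for 4 at the low dose, beside 25.8%. Other measures moved with dose in these libraries. Mitochondrial ribosomal RNA genes took 0.932 ± 0.0251% of counts in SW1783 vehicle, and 3.14 ± 0.164%, 7.83 ± 0.199% and 5.93 ± 0.15% with rising dose. The 5 mesenchymal markers, of which none was at 0 and 2 are the collagen genes among the targets below, summed to 10200 to 10600 CPM in vehicle and 6460 to 6500 CPM at the high dose, and the 5 astrocyte markers, of which 1 was at 0 and GFAP close to it, summed to 33.4 to 35.3 and 5.58 to 6.17 CPM, nearly all from SLC1A3. The leukocyte marker PTPRC, beside CD3E at 0, gave 12.7 to 14.2 CPM in vehicle and 3.28 to 4.91 CPM at the high dose. Their part in the results was not tested, and in bulk RNA fewer cells of a kind and less RNA per cell cannot be told apart.

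**Figure D3:**
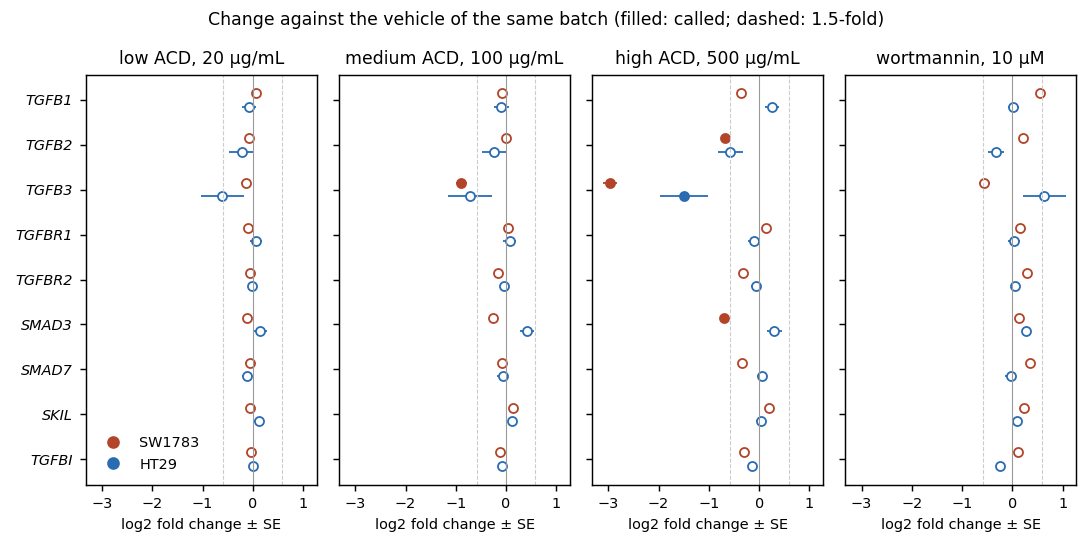
Log2 fold change ± SE of the 9 members against the vehicle of the same batch, for 3 ACD doses and wortmannin in SW1783 (red) and HT29 (blue); filled points were called and dashed lines mark 1.5-fold. TGFB3, TGFB2 and SMAD3 in SW1783 and TGFB3 in HT29 are filled at the high dose, TGFB3 in SW1783 is filled at the medium dose, and no point is filled at the low dose or under wortmannin.

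In HT29 most members were not called at the high dose of ACD. Of 9 members 1 was called, TGFB3, and it was lower, where 3.13% of 15002 genes were called, 1.77% lower. TGFB3 had 38.4, 22.0 and 21.3 normalized counts in vehicle and 8.7, 10.3 and 9.7 at the high dose, from 20 to 30 and 6 to 13 reads. The groups did not overlap, although vehicle replicate 1 was far above the other vehicles (log2 fold change -1.49 ± 0.48, adjusted p = 0.028). This call was weak: without vehicle replicate 1 the change was -1.18 with an adjusted p of 0.191, without vehicle replicate 2 the adjusted p was 0.06, and without high-dose replicate 1 or 3 it was 0.106 or 0.109. A fit of both groups without the other doses gave an adjusted p of 0.0956. Without high-dose replicate 2 the call was kept (-1.53, adjusted p = 0.0338).

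SMAD3 and TGFB1 in HT29 turned on that replicate. SMAD3 had 3379, 3667 and 3680 normalized counts in vehicle, 4736, 4849 and 4757 at the medium dose and 5068, 3214 and 4929 at the high dose. The medium group and high-dose replicates 1 and 3 lay above every vehicle library, and high-dose replicate 2 below them. SMAD3 was not called at either dose (log2 fold change 0.30 ± 0.15, 95% interval 0.02 to 0.59, adjusted p = 0.217 at the high dose; 0.42 ± 0.15, interval 0.13 to 0.71, adjusted p = 0.136 at the medium dose). Without high-dose replicate 2 the high-dose change was 0.48 ± 0.06 (adjusted p = 4.38e-12), under 1.5-fold. All doses of the line share 1 estimate of the spread, so that this library also widened the SE at the medium dose. The medium-dose test is therefore no evidence of an unchanged SMAD3 level. TGFB1 had 401.1, 442.7 and 437.3 in vehicle and 559.9, 376.1 and 579.4 at the high dose (0.25 ± 0.14, adjusted p = 0.33), and without replicate 2 the change was 0.41 ± 0.10 (adjusted p = 0.000622). TGFB2 had 234.3, 304.4 and 302.2 in vehicle and 213.9, 97.4 and 246.4 at the high dose, overlapping (-0.57 ± 0.25, adjusted p = 0.152), and the value without replicate 2 was -0.29 (adjusted p = 0.162).

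The remaining 5 members of HT29 were not called at the high dose. With all libraries included, their log2 fold changes ran from -0.15 for TGFBI to 0.06 for SMAD7. Their 95% intervals then reached no further than -0.36 (TGFBR1) and 0.26 (SMAD7). Without high-dose replicate 2 these 5 members were not called either, and TGFBR1 was at -0.17 ± 0.13 (adjusted p = 0.391). Besides TGFB3, TGFBI was the only member whose libraries did not overlap with vehicle, which makes 2 of 9 beside 22.1% of all genes. With total-count scaling, which moved the median of all genes by -0.14, TGFBI was at -0.29 (adjusted p = 0.00598). At the medium and low doses 0 of 9 members were called, where 0.786% and 0.285% of 17177 genes were called. No member had an adjusted p under 0.05 in DESeq2 at these doses, where 1.96% and 0.547% of genes did. The spread in that fit includes high-dose replicate 2. In edgeR 0 members were called too. An unadjusted p under 0.05 was found for 1 member, SMAD3, at the medium dose and for 0 at the low dose. Between the medium and high doses of HT29, 0 of 9 members were called in DESeq2 and in edgeR, where 0.687% of 15002 genes were called, and 1 member, TGFB1, had an unadjusted p under 0.05 (0.34, adjusted p = 0.332). Without high-dose replicate 2 this TGFB1 difference was 0.51 ± 0.10 (adjusted p = 4.49e-05), under 1.5-fold. The share of mitochondrial ribosomal RNA was 1.18 ± 0.0398% in HT29 vehicle and 12 ± 0.634% at the high dose, and the 5 epithelial markers, none at 0, summed to 1370 to 1450 and 1240 to 1280 CPM. Their part in the results was not tested. The ligand make-up at the high dose, with replicate 2 included, was 83.1 ± 2.99% TGFB1 and 15.8 ± 3.35% TGFB2. The TGFBR1 share of receptors stayed between 13.3% and 14.3% in all 6 HT29 groups.

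**Figure D4:**
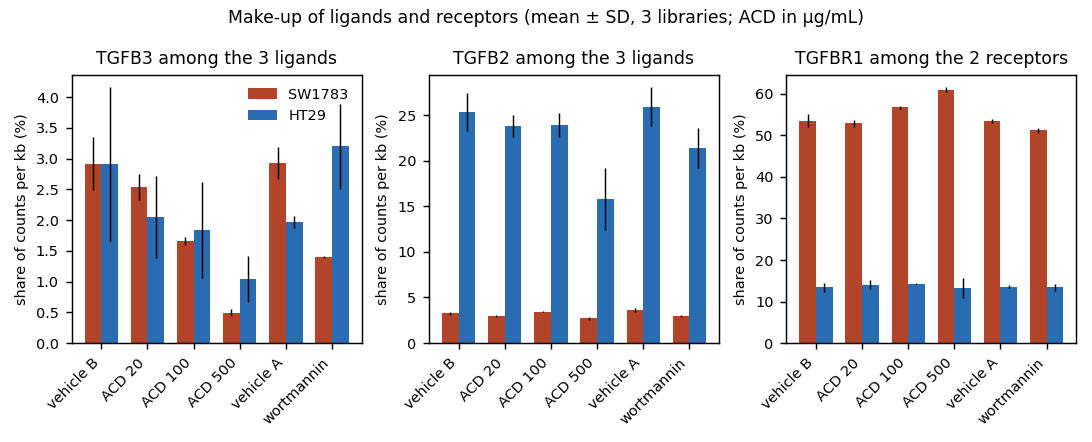
Share of TGFB3 and of TGFB2 among the 3 ligands and of TGFBR1 among both receptors, in percent of counts per kb, by group (x axis) for SW1783 (red) and HT29 (blue), as mean ± SD of 3 libraries. In SW1783 the TGFB3 share steps down with dose to 0.495% and the TGFBR1 share reaches 61.0%, while in HT29 the TGFBR1 share stays near 13 to 14%.

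SMAD3 fell in SW1783 and was not called in HT29, where its mean was higher than vehicle, and the difference itself was tested with an interaction term. At the high dose 3 of 9 members were called as responding differently, all with a lower value in SW1783, where 14.6% of 18384 genes were called, 7.77% with that sign. SMAD3 differed by -1.04 ± 0.16 on the log2 scale (SW1783 minus HT29, adjusted p = 7.21e-10), TGFB3 by -1.56 ± 0.37 (adjusted p = 0.000173) and TGFB1 by -0.67 ± 0.15 (adjusted p = 4.23e-05). Without HT29 high-dose replicate 2 these were -1.22, -1.53 and -0.82, each still called, and without replicate 3 TGFB1 was at -0.56, under 1.5-fold. SMAD7, TGFBR2 and TGFBI differed by -0.44 ± 0.12, -0.29 ± 0.10 and -0.20 ± 0.05, under 1.5-fold, so that 6 members passed by adjusted p alone, as did 27.7% of genes. Of these, TGFBR2 and TGFBI did not pass in edgeR (adjusted p = 0.0821 and 0.237) or with total-count scaling (0.161 and 0.0938). TGFB2 did not pass with all libraries (-0.16 ± 0.24, adjusted p = 0.709). It did without HT29 high-dose replicate 2, by under 1.5-fold (-0.43 ± 0.14, adjusted p = 0.00639). At the medium dose SMAD3 was the 1 member called (-0.70 ± 0.16, adjusted p = 0.000253), where 3.31% of 15186 genes were called, and at the low dose 0 of 9 were, where 0.261% were called.

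Under wortmannin 8 of the 9 members of SW1783 were higher than vehicle and TGFB3 was lower, all by under 1.5-fold. None of the 9 members was called, where 2.67% of 14810 genes were called, but by adjusted p alone all 9 passed in DESeq2, as did 31.7% of the genes, and no member's groups overlapped, as for 53.7% of genes. The median log2 change of the members was 0.22, against 0.00 over all genes. TGFB1 had 8488, 9464 and 9896 normalized counts in batch A vehicle and 13343, 13343 and 13936 under wortmannin. All treated libraries lay above all vehicles, at 1.46-fold, just short of the threshold (log2 fold change 0.55 ± 0.07, adjusted p = 2.16e-14), and without vehicle replicate 3 it was past the threshold (0.59).

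TGFB3 was the member that was lower, with 409.5, 525.0 and 463.5 in vehicle and 315.8, 310.1 and 327.5 under wortmannin (-0.56 ± 0.11, adjusted p = 2.85e-06), and without vehicle replicate 1 it was past the threshold (-0.64). SMAD7 (0.36 ± 0.08), TGFBR2 (0.29 ± 0.05), SKIL (0.24 ± 0.04) and TGFB2 (0.22 ± 0.07) were higher by under 1.5-fold, as were TGFBR1 (0.16), SMAD3 (0.13) and TGFBI (0.12). The ACD and wortmannin comparisons have vehicles of their own batch that were not clearly independent, so that no correlation between them is given.

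In HT29, 0 of the 8 members with an adjusted p were called under wortmannin, where 2.7% of 12553 genes were called. SMAD3 had 3090, 3384 and 3281 normalized counts in vehicle and 3938, 3869 and 3928 under wortmannin, higher without overlap by under 1.5-fold (0.27 ± 0.06, adjusted p = 0.000103). TGFBI had 1129, 1084 and 1136 in vehicle and 935.9, 945.7 and 940.0, lower without overlap (-0.25 ± 0.07, adjusted p = 0.00604), and TGFB1 differed by 0.02 ± 0.11 (95% interval -0.18 to 0.23). By adjusted p alone 2 members passed in DESeq2, as did 20.7% of genes. TGFB2 was lower and did not pass in DESeq2 (-0.32 ± 0.15, adjusted p = 0.125), though it did in edgeR (adjusted p = 0.0168). TGFB3, at 14.7, 17.1 and 15.9 in vehicle and 21.3, 23.0 and 30.9 under wortmannin, was too low for DESeq2 to give an adjusted p (0.64 ± 0.43). Between the lines, TGFB3 was the 1 of 9 members called for a different response to wortmannin (-1.20 ± 0.31, adjusted p = 0.0018), where 3.39% of 13280 genes were called. TGFB2 (0.52 ± 0.13) and TGFB1 (0.50 ± 0.10) were under 1.5-fold with the opposite sign, and by adjusted p alone 6 members passed, as did 15.3% of genes. With the replicate number as a block 3 of these passed, and TGFB2 (adjusted p = 0.138), SMAD7 (0.304) and SMAD3 (0.336) did not.

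Across the 18 libraries of SW1783, most members varied together. Between TGFB1, TGFB2, TGFBR2, SMAD3, SMAD7 and TGFBI, grouped after the values were seen, the correlations ran from 0.775 to 0.969. TGFB3 correlated with these members at 0.539 (TGFB1) to 0.908 (SMAD3). No values for pairs of other genes are given beside these, so that the range is not particular to the members. SMAD3 followed TGFBI (Pearson r = 0.97 of log2 normalized counts), TGFB2 (0.94) and TGFB3 (0.91), and SMAD7 followed TGFB1 (0.95), whereas TGFBR1 went with SKIL (0.86) and against TGFB3 (-0.49). In HT29 the strongest pairs were TGFBR1 with SKIL (0.67), TGFB2 with TGFBR2 (0.62) and SMAD3 with TGFBI, which ran in opposite directions (-0.58). The 18 libraries share the treatments, so that these values are descriptions without a p. Among the 11379 genes with enough counts in SW1783, those most like TGFB3 were UHRF1 (0.996), GALNT2 and DHX9, and those most like SMAD3 were TCF4, C14orf132 and PCDHB7. TGFB1 was most like FAM89B (0.96), LTBP3 (0.95), which encodes a binding protein for latent TGF-beta, and SMAD7. In HT29 SMAD3 was most like PTGS1 (0.94), CCDC9B and CCDC88C.

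A list of 64 other genes of the pathway, in 7 groups by role, put the members in context. At the high dose in SW1783, 60 had an adjusted p and 21 of these were called, 5 higher and 16 lower, beside 8.42% and 9.28% of all genes, with a median log2 change of -0.11. The list was drawn up with earlier results of these data known, and it is described by counts alone.

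In the group that releases latent ligand, 3 of the 11 listed genes were called lower and 1 higher, beside 9.28% and 8.42% of all genes tested. ITGB8, an integrin subunit that activates latent TGF-beta, fell from 1782 ± 44.33 to 287.2 ± 17.0 normalized counts (log2 fold change -2.64 ± 0.09, adjusted p = 1.83e-203). THBS1, thrombospondin-1, which can also activate the latent ligand, fell from 36979 ± 654.8 to 9646 ± 670.4 (-1.94 ± 0.04). The latent ligand's membrane anchors LRRC32 and NRROS, named after their values were seen, had few counts and went down (-1.66 ± 0.66) and up (1.37 ± 0.41).

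Among the 17 listed target genes, 6 were called lower and 2 higher, beside 9.28% and 8.42% of all genes tested. The fibrillar collagen genes COL1A1 (69316 ± 1927 to 16559 ± 683.8, log2 fold change -2.07 ± 0.04) and COL1A2 (43737 ± 903.7 to 11774 ± 583.2, -1.89 ± 0.05) fell, as did SNAI1, a repressor of epithelial genes (-1.81 ± 0.11, adjusted p = 1.44e-54). CDKN2B, the cell cycle inhibitor p15, rose from 667.9 ± 26.32 to 1869 ± 44.58 (1.48 ± 0.06, adjusted p = 2.9e-136), and BHLHE40 rose as well (1.00 ± 0.03). FN1 and CCN2, often used to read the pathway and named here after their values were seen, had log2 fold changes of -0.01 ± 0.02 and 0.00 ± 0.05. The target genes thus went in both directions.

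TGIF1, a corepressor of Smad complexes, rose most of all listed genes that were called, from 524.1 ± 16.93 to 3116 ± 41.71 (log2 fold change 2.57 ± 0.06), and also at the medium dose (1.09 ± 0.06). The other calls at the high dose, named after their values were seen, were the corepressor TGIF2 (-1.09) and the feedback inhibitor PMEPA1 (-1.07), the inhibitory SMAD6 (-1.69), the co-receptor ENG (-1.22), the activin receptor ACVR2A (-0.76) and the pseudoreceptor BAMBI (-0.59), the ligand GDF11 (-0.996) and the activin trap FST (1.99), together with the targets TNS1 (-1.53), ACTA2 (-0.94) and VCAN (-0.80). SMAD2 (0.31 ± 0.04) and SMAD4 (0.30 ± 0.06), which act with SMAD3, were higher by under 1.5-fold.

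At the medium dose 4 of 53 listed genes were called in SW1783, beside 3.78% of all genes: TGIF1 and CDKN2B (0.62 ± 0.06) rose, and ITGB8 (-1.21 ± 0.08) and SNAI1 (-0.73 ± 0.10) fell. At the low dose 0 of 46 were called, beside 0.119% of all genes. Under wortmannin 2 of 55 were, beside 1.72% of all genes higher and 0.952% lower: LTBP2, a latent TGF-beta binding protein relative, rose (0.82 ± 0.06) and ACTA2, smooth muscle actin, fell (-0.85 ± 0.05). In HT29 3 of 46 were called at the high dose, beside 3.13% of all genes. THBS1 rose there (0.67 ± 0.11, adjusted p = 3.82e-07) and at the medium dose (0.63 ± 0.11), and the co-receptor TGFBR3 (-0.61 ± 0.13) and the target CCN2 (-0.66 ± 0.20, named after its value was seen) fell. The high-dose calls were not stable. With total-count scaling 0 listed genes were called higher and 4 lower, without high-dose replicate 1 the counts were 0 and 2, without replicate 2 they were 1 and 1, and with only the groups compared 1 and 0. In HT29 0 of 49 were called at the low dose and 0 of 40 under wortmannin, beside 0.285% and 2.7% of all genes. The response of THBS1 to the high dose differed between the lines by -2.66 ± 0.11 (SW1783 minus HT29, adjusted p = 1.68e-125) and that of TGIF1 by 2.63 ± 0.10 (adjusted p = 1.32e-157).

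**Figure D5:**
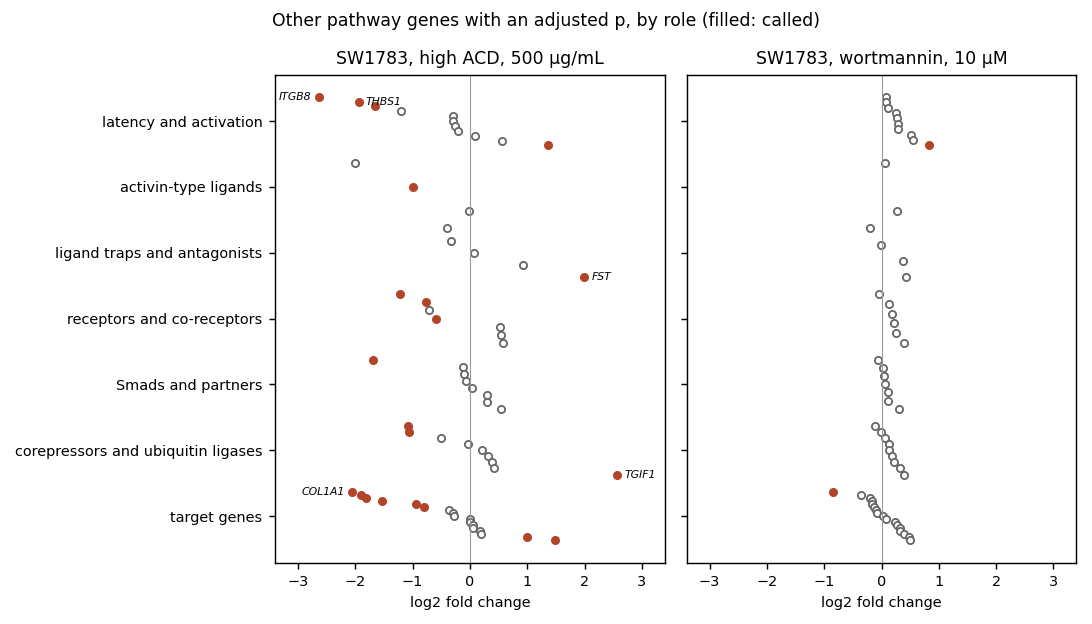
Log2 fold change (x axis) of the other pathway genes with an adjusted p in SW1783, by role (y axis), at 500 µg/mL ACD (60 genes) and under 10 µM wortmannin (55 genes); filled points were called, and names mark called genes beyond 1.9 in either direction. Among called genes ITGB8, COL1A1 and THBS1 lie furthest to the left and TGIF1 furthest to the right at the high dose, while under wortmannin only LTBP2 and ACTA2 are filled.

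Overlapping genes leave some of these values uncertain. TGFB1 and TGFB2 overlap a long non-coding RNA gene on their own strand in GENCODE, which the counting could split, and TGFB1, TGFB2, TGFB3, SMAD3, TGFBR1 and TGFBR2 overlap genes on the other strand. The library kit keeps the strand, but the strand setting of the counting is not given in the sources used here.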

How the data were processed

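Total RNA of 36 libraries was made into directional libraries and sequenced as paired reads. Per the labels, the authors trimmed reads with Trim Galore (0.6.5), aligned them to GRCh38 with STAR (2.7.3a) and deposited expected counts per gene from RSEM (1.3.3); the study's methods give other versions of some tools. Deposited expected counts were rounded to whole numbers (8.84% were not whole). Each line and batch was fitted on its own (12 libraries in batch B, 6 in batch A) with DESeq2 1.42.0 (Wald test, Benjamini-Hochberg adjustment over all genes with an adjusted p) in R 4.3.3. Line differences were tested with an interaction term over 24 libraries (ACD) or 12 (wortmannin). A gene was called at an adjusted p under 0.05 and over 1.5-fold. Normalized counts are those of the own fit, so levels are compared within a fit. Libraries were grouped by the labels. Total counts per library (15941250 to 33866636) set the precision, and values cover counting error and spread between libraries only. CPM per kb used summed exon lengths of GENCODE, and the study counted on another release. Named genes were all 9 members and, of the list, the 5 called genes of each sign with the largest change, a mean of at least 100 normalized counts and groups without overlap; genes of like pattern were the 3 with the highest Pearson r, given for some members, and a few such values are not reported here. The members and lists were chosen with earlier results of these data known. The tests were checked on simulated counts. Alternatives were edgeR 4.0.16, other scalings and filters, no fold threshold, a replicate block, other sets of libraries and leaving out each library.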

Additional observations from a re-analysis of the deposited data

Results flagged for a closer look

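The responses of SW1783 and HT29 differed, by the interaction term in DESeq2, in 5 values (SW1783 minus HT29, log2). At the high dose of ACD the difference was -1.04 ± 0.16 for SMAD3, -1.56 ± 0.37 for TGFB3 and -0.67 ± 0.15 for TGFB1. At the medium dose it was -0.70 ± 0.16 for SMAD3, and under wortmannin -1.20 ± 0.31 for TGFB3. In HT29 TGFB3 rested on 6 to 30 reads per library in these groups. Causes of the differences were not tested.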

How the results depend on the processing

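Of 727 alternative values for 54 member values that passed an adjusted p, 0 changed sign and 58 were weaker. The other 669 kept an adjusted p under 0.05 and, where the value was called, a change over 1.5-fold. Some of these moved past 1.5-fold, as given below, and values that did not pass as reported are not counted here. With no fold threshold the called members were 9 at the high and 5 at the medium dose, 7 from medium to high dose and 9 under wortmannin in SW1783, 2 under wortmannin in HT29, and 6 each for the line difference at the high dose and under wortmannin. In HT29 at the high dose 0 members were called with only the groups compared. Leaving out each library gave 0 to 1 called member in HT29 at the high dose (without high-dose replicate 3, TGFB2 was called at -0.83) and 0 to 1 under wortmannin in SW1783. The line difference had 2 to 3 called members at the high dose, and 1 to 2 under wortmannin, where TGFB2 was called without HT29 vehicle replicate 1 (0.61) or wortmannin replicate 1 (0.59). These causes were not tested.

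The labels number the replicates alike in all groups, but same-numbered libraries did not deviate together (correlations of deviations from -0.46 to 0.33, in no comparison all over 0.1), so the numbers were not taken as pairs. With the replicate number as a block, 0 members were called in HT29 at the high dose (TGFB3 adjusted p = 0.0876), and the number called did not change in the other comparisons. By adjusted p alone the block left 3 in place of 6 members for the line difference under wortmannin, 8 in place of 9 under wortmannin in SW1783 (TGFB2 adjusted p = 0.112) and 1 in place of 2 under wortmannin in HT29 (TGFBI adjusted p = 0.11). Over all genes 7 in place of 11 were called at the low dose in SW1783, 257 in place of 395 and 212 in place of 339 under wortmannin in SW1783 and HT29, and 266 in place of 450 for the line difference there.

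Counts over all genes also moved by over 1.5 times elsewhere. edgeR called 912 in place of 522 at the medium dose, 131 in place of 11 at the low dose and 803 in place of 395 under wortmannin in SW1783, 706 in place of 339 under wortmannin in HT29, and 134 in place of 33 and 685 in place of 450 for the line differences at the low dose and under wortmannin. With only the groups compared, 6 genes were called for low ACD in SW1783 and 305 in place of 469 at the high dose in HT29; with all 18 libraries of the line, 78 in place of 49 at the low dose in HT29; with total-count scaling, 168 in place of 103 from medium to high dose in HT29. With no fold threshold the counts were 94 to 9017. Leaving out a low-dose library left 5 to 6 genes at the low dose in SW1783. In HT29, 26 and 32 genes were called at the low dose without vehicle replicate 2 and low-dose replicate 3, and 87 at the medium dose without its replicate 3. Total-count scaling moved the median of all genes by -0.14 to 0.07. Batch A holds only the groups compared, so that setting has no value there. Depth limits TGFB3 in HT29 most, at 6 to 30 reads per library.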
